A study of Rattus norvegicus with 4 samples.

Results

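Collagens, laminins, matrix metalloproteinases, their tissue inhibitors and 10 further matrix genes were examined in the acid-secreting mucosa of the rat stomach after octreotide LAR, a slow-release depot of a somatostatin analogue. The members were chosen by a rule on platform gene symbols, with earlier results of these data known. The rule took collagen chains (Col followed by chain numbers), Mmp, Timp and laminin chain genes, and Fn1, Sparc, Dcn, Lum, Bgn, Lox, Eln, Fbn1, Postn and Tnc. This gave 64 genes of the 10411 that a single symbol named, read by 88 of the 15866 probe sets on the Affymetrix RAE230A chip; a probe set is a group of short probes that reads the transcripts of a gene. They fall into 20 fibrillar and interstitial genes, 15 basement membrane genes, 17 protease and inhibitor genes and 12 other collagens.

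Collagens are built of chains that wind around each other in a helix; the fibrillar types form the ropes of the lamina propria and submucosa, and type IV collagen forms, with laminins, the sheet under every epithelium and around vessels and muscle cells. Matrix metalloproteinases cut these proteins, and the tissue inhibitors of metalloproteinases (TIMPs) block them. In the stomach wall most of these transcripts come from fibroblasts, smooth muscle and endothelium beneath the glands, while epithelial cells add basement membrane components.

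Female Sprague-Dawley rats, 8 weeks old per the labels, received either octreotide LAR at 5 mg per animal or a matching volume of the depot's vehicle, and the scraped mucosa was taken at 21 days, after a night of fasting and under anaesthesia in both groups. RNA of 8 vehicle animals was pooled on 1 chip, and RNA of 6 treated animals went in pools of 2 onto 3 chips, here treated pools 1, 2 and 3. The title and description name the lone control chip as vehicle, although its source label mentions octreotide LAR, and its tissue entry says corpus where those of the treated chips say oxyntic. Median signals lay between 223.7 and 233.4 on all 4 chips. The gland markers fixed for parietal cells (Atp4a and Atp4b), chief cells (Pgc) and surface mucous cells (Muc5ac) were bright on every chip. Cym, another marker on the chief cell list, had 19071 on the vehicle chip and 3952, 8204 and 7561 on the treated pools; its log2 difference of -1.60 did not pass (limma adjusted p = 0.07). Hdc, the histamine-forming enzyme of the ECL cell, fell (limma adjusted p = 0.0027) and had 3537 on the vehicle chip and 1075, 1323 and 1122 on the treated chips. Its limma adjusted p ran from 1.7e-11 to 0.15 over 12 alternatives, and the call was lost without the filter (0.095) and without a trend (0.15).

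The comparison asked whether 21 days of octreotide LAR altered the transcripts of the mucosal scaffold and of the enzymes that remodel it. No member passed the test. Of the 88 probe sets, 58 were bright enough to be tested, covering 45 of the 64 genes, and 0 of these 58 had a limma adjusted p under 0.05, beside 0.105% of all 9520 probe sets tested. In the 2 directions the background was 0.0945% higher and 0.0105% lower. An unadjusted limma p under 0.05 was found for 3 of them (5.17%), beside 4.57% of all. Both Col18a1 probe sets were the lower ones (3.45%, beside 1.71% of all), and a Timp3 probe set was the higher one (1.72%, beside 2.86%). The count was 6 (10.3%, beside 6.97% of all) without treated pool 1 and 5 (8.62%, beside 6.22%) without treated pool 2. Leaving out treated pool 3 gave 2 (3.45%, beside 4.57%), and eBayes without a trend also gave 2 (3.45%, beside 4.95%). Without the filter the count was 8 of 88 (9.09%, beside 4.89%). With the filter at the 20th percentile it was 3 of 72 (4.17%, beside 4.66%). The smallest limma adjusted p of any member was 0.81, that of Col18a1. Over 1 probe set a gene, the median log2 difference, treated minus vehicle, was 0.0034 for the 45 members and -0.00087 for all 7150 genes. Among the 45, 23 were higher in the mean and 22 lower, beside 3560 higher and 3590 lower of the 7150.

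The treated chips all lay above the vehicle chip for 14 of the 58 probe sets (24.1%, beside 25.0% of all tested) and all below it for 15 (25.9%, beside 24.0%). A distance of at least 1.5-fold below the vehicle chip on every treated chip was found for 1 member, Col18a1 (1.72%, beside 0.420% of all), and none lay as far above it on every treated chip (beside 1.13% of all). The 95% interval lay within a 2-fold change in either direction for 49 of the 58 probe sets and within 1.5-fold for 18. These intervals take the spread from the 3 treated chips and assume that the lone vehicle chip varies alike. What is peculiar to the vehicle pool and what differs with treatment cannot be told apart.

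**Figure D1:**
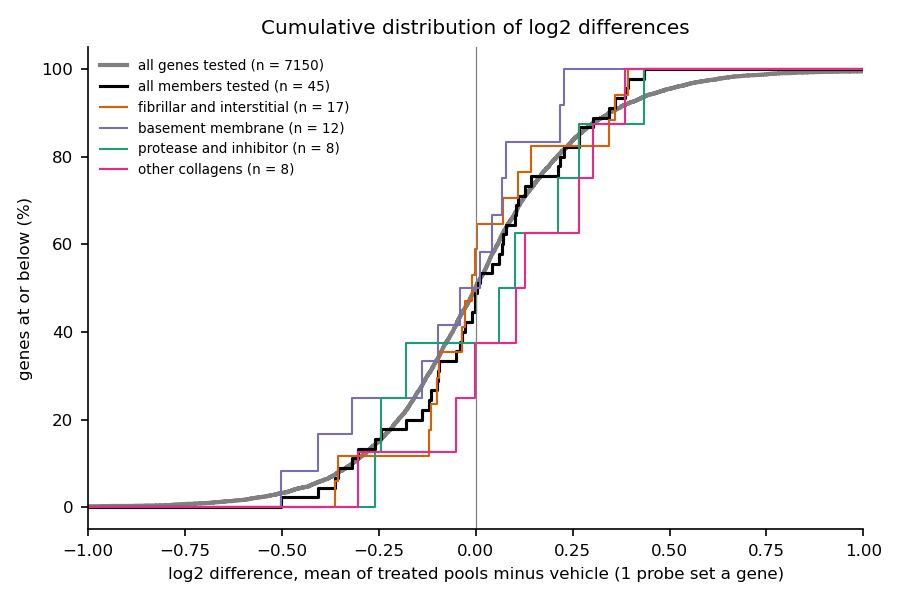
Cumulative share of genes (percent, vertical axis) against the log2 difference of the treated mean from the vehicle chip (horizontal axis, shown from -1 to 1), with 1 probe set a gene, for all 7150 genes tested, the 45 tested members and their classes. The line of the members follows that of all genes, with medians of 0.0034 and -0.00087.

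**Figure D2:**
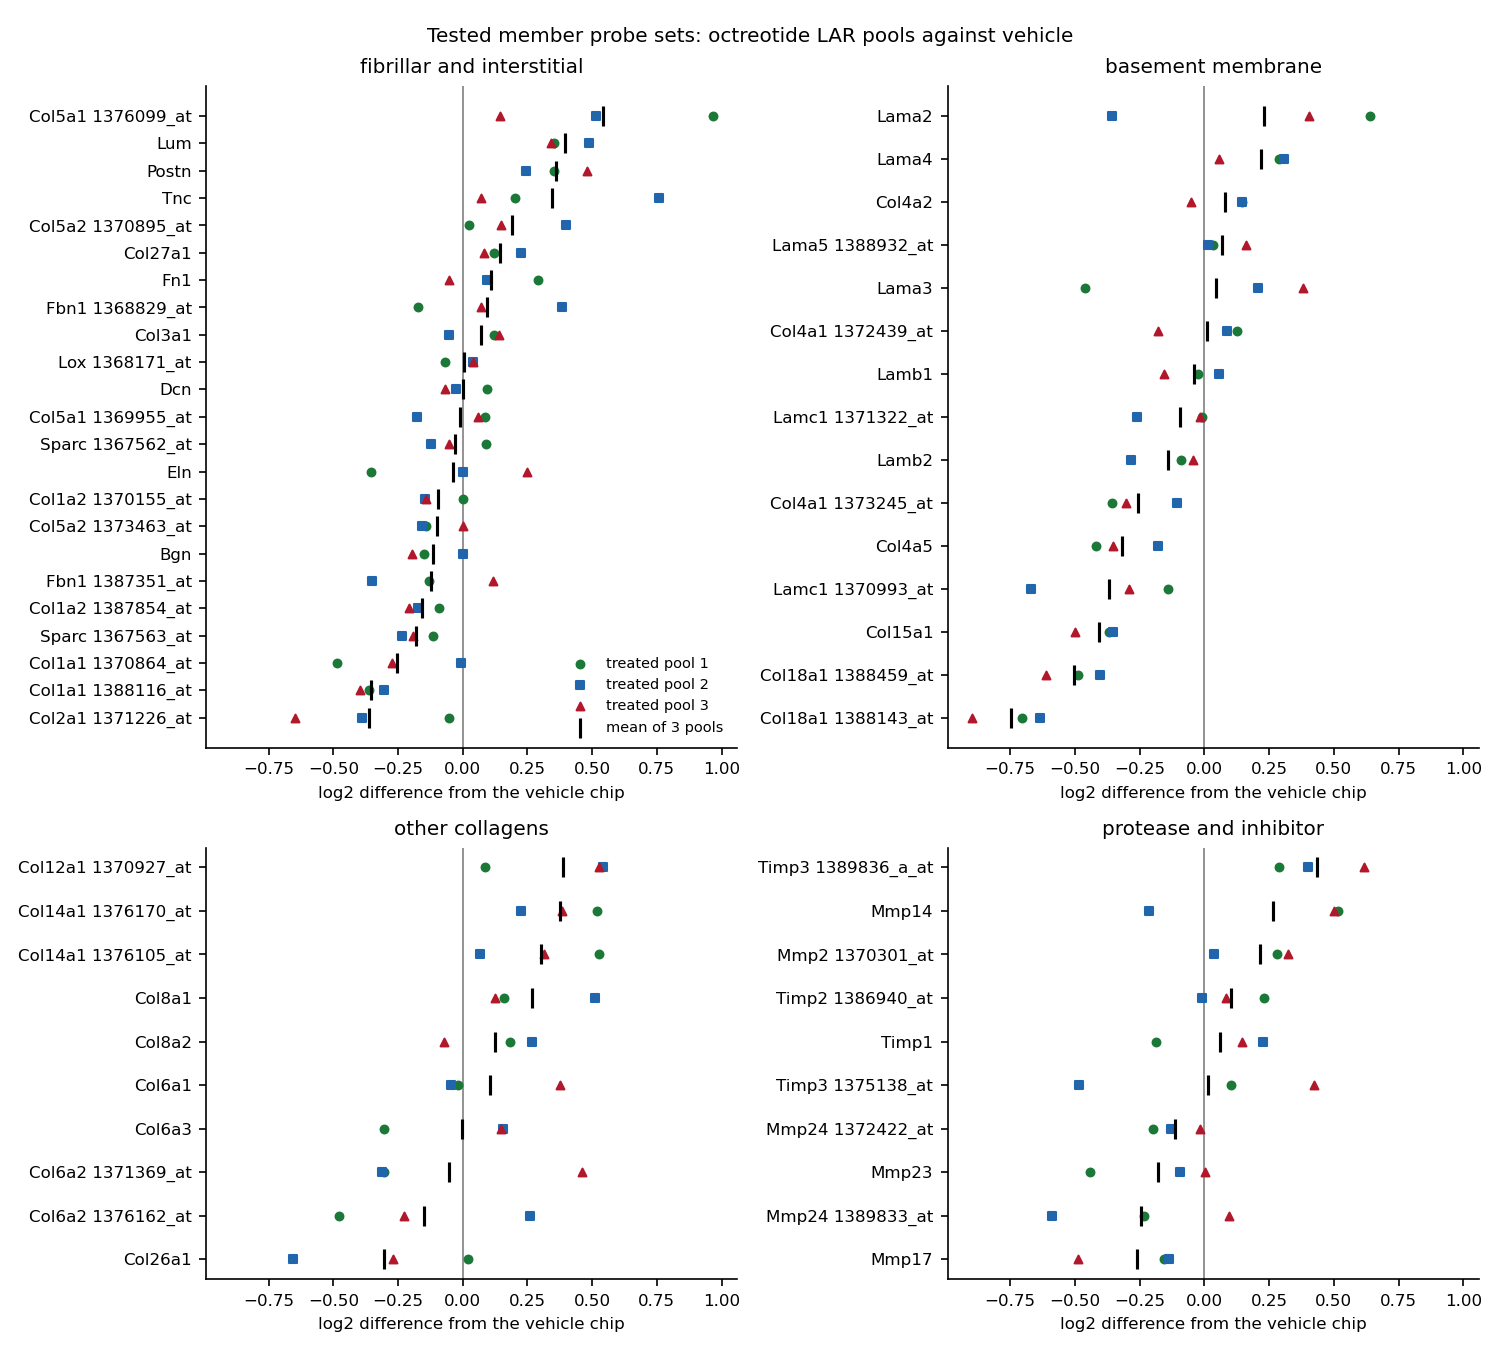
Log2 difference of each treated pool (coloured symbols) from the vehicle chip and the mean of the 3 pools (black bar) for the 58 tested probe sets, by class. Both Col18a1 probe sets and Col15a1 lie at the low end of the basement membrane panel with all pools below 0, while Lum, Postn and a Timp3 probe set have all pools above 0.

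Basement membrane genes held the 3 lowest log2 differences of all tested members. Col18a1 encodes collagen XVIII, a collagen of vascular and epithelial basement membranes that carries heparan sulfate and whose end fragment is endostatin. Its probe set 1388143_at had 696 on the vehicle chip and 421, 442 and 366 on treated pools 1, 2 and 3. Every treated pool was well under the vehicle pool, and the treated pools lay close together, at 409 ± 39.1 (SD, n = 3). The log2 difference was -0.75 (95% interval from -1.26 to -0.23), a 1.68-fold lower mean that did not pass over all probe sets (limma adjusted p = 0.81, unadjusted p = 0.0078). The second probe set, 1388459_at, had 1101 on the vehicle chip and 779, 827 and 714 on treated pools 1, 2 and 3, a log2 difference of -0.50 (95% interval from -0.94 to -0.063; limma adjusted p = 0.9998, unadjusted p = 0.028). It too was lower on every treated chip, with pool 3 lowest and pool 2 highest among the treated in both readings. Over all alternatives tried the 2 differences ran from -0.80 to -0.67 and from -0.55 to -0.45.

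Col15a1 encodes collagen XV, the closest relative of collagen XVIII, which ties basement membranes to the fibrils beneath. It had 1403 on the vehicle chip and 1084, 1096 and 987 on treated pools 1, 2 and 3, and the treated chips lay below the vehicle chip without overlap. Its log2 difference, -0.41 (95% interval from -0.82 to 0.0045), did not pass (limma adjusted p = 0.9998, unadjusted p = 0.052). On pools 1, 2 and 3 the differences were -0.37, -0.35 and -0.50 for Col15a1. They were -0.70, -0.64 and -0.90 for Col18a1 1388143_at and -0.49, -0.41 and -0.61 for Col18a1 1388459_at, so that pool 3 was lowest in each.

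The starts of the 2 related genes are shown because their transcripts were low on the same chips; the data do not bear on the sequences themselves. RefSeq's table for the GRCr8 assembly, from 250 bases before to 50 after the start of a gene, held 47 of the 64 members. For Col18a1 (chr20:11473395-11473694, plus strand) and Col15a1 (chr5:66297296-66297595, plus strand) it reads as follows, 5′ to 3′, with capitals at the GC box, GGGCGG on either strand, a letter pattern that the factor Sp1 can bind.
Col18a1: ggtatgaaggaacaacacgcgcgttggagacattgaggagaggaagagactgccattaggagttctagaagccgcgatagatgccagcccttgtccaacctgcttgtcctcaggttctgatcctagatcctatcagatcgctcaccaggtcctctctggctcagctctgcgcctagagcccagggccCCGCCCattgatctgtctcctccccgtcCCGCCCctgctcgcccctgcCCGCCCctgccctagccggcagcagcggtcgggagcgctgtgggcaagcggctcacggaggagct
Col15a1: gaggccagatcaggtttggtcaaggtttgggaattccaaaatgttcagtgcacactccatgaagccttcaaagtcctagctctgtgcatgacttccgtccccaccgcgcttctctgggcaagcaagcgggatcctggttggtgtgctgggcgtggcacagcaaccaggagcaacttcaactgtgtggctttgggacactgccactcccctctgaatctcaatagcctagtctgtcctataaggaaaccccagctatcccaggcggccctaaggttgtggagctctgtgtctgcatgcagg
The Col18a1 window held 3 such matches, all upstream of the annotated start, and the Col15a1 window 0. Of all 33469 windows of this length 33.1% held the GC box, and of the 47 member windows 23 did. TATAAA, searched on both strands, was in 14.2% of all windows and in 11 of the 47, and CCAAT in 37.5% and in 12.

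Col4a1 and Col4a2 encode the chains of the common type IV collagen network and lie head to head. Their annotated starts are 77 bases apart on chromosome 16 and on opposite strands, so their windows share 176 bases; 10.2% of all windows overlap 1 on the opposite strand. The Col4a1 window (chr16:84885347-84885646, plus strand) is shown with that shared stretch (chr16:84885471-84885646) in capitals, since both annotated starts lie in it.
Col4a1: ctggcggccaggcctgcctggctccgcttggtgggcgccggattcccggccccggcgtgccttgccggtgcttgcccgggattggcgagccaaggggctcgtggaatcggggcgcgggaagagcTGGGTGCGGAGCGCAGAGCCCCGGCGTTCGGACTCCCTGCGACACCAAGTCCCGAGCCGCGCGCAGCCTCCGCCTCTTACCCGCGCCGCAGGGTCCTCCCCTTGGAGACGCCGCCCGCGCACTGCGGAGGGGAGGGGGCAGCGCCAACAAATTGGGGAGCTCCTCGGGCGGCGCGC
Probe set 1372439_at of Col4a1 had 1439.9 on the vehicle chip and 1571, 1532 and 1269.8 on treated pools 1, 2 and 3. The Col4a2 probe set had 983 on the vehicle chip and 1089, 1087 and 948 on treated pools 1, 2 and 3. Both were highest on pools 1 and 2 and lowest on pool 3, with the vehicle chip in between, and the log2 differences were 0.011 (95% interval from -0.41 to 0.43) for Col4a1 and 0.079 (95% interval from -0.35 to 0.50) for Col4a2. A second Col4a1 probe set, 1373245_at, read differently, with 1256 on the vehicle chip and 977, 1166 and 1016 on treated pools 1, 2 and 3 and a log2 difference of -0.26; its treated chips were all below the vehicle chip. Col4a5, a chain of a second type IV network, had 2132 on the vehicle chip and 1589.7, 1881 and 1664 on treated pools 1, 2 and 3, again all below, and differed by -0.32 (95% interval from -0.71 to 0.073) on the log2 scale.

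The laminins are crosses of an alpha, a beta and a gamma chain that bind cells to the sheet. Lamb1, a beta chain, had 652 on the vehicle chip and 642, 679.5 and 585 on pools 1, 2 and 3, and the related Lamb2 had 827 against 776, 677 and 801. The gamma chain Lamc1 had 1259 against 1249.8, 1048 and 1244 by probe set 1371322_at and 216 against 194, 129 and 173 by 1370993_at. Lamb2 and both Lamc1 readings were lowest on pool 2, and all treated chips were below the vehicle chip, the smallest gap being a log2 difference of -0.010 for 1371322_at on pool 1. Among the alpha chains, Lama2, the chain of muscle and nerve basement membranes, ran from 217 on pool 2 to 450.1 on pool 1 around a vehicle signal of 283. Lama3, the chain of epithelial anchoring, ran from 399 on pool 1 to 728 on pool 3 around 555. The spread between treated pools was thus larger than the difference from vehicle for both. Lama4, a chain of vessels, had 306 against 359.7 ± 35.1 (SD, n = 3), and Lama5, the broadly epithelial chain, 662 against 696 ± 39.3 (SD, n = 3); both were above vehicle on every treated chip, with log2 differences of 0.22 and 0.069.

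Of the 15 basement membrane probe sets tested, the treated chips were all below the vehicle chip for 8 (53.3%, beside 24.0% of all tested) and all above it for 2 (13.3%, beside 25.0%). Both Col18a1 and both Lamc1 probe sets are among the 8. Col4a1 is among them only by its dimmer probe set, 1373245_at. With 1 probe set a gene the class had 12 genes, 6 higher and 6 lower in the mean, with a median log2 difference of -0.015. Of these 12 genes, 5 were below vehicle on every treated chip, beside 1716 of all 7150 genes. Above it on every treated chip were 2 of the 12, beside 1800 of the 7150. The medians on pools 1, 2 and 3 were -0.017, -0.082 and -0.049. Averaging the probe sets of a gene gave -0.081, and leaving out treated pool 3 gave -0.055. Vessels are a main site of collagens XV and XVIII. Of 10 endothelial markers 6 were tested (Vwf and Cldn5 were too dim) and 0 called, beside 0.105% of all probe sets tested. Their summed signal was 3265 on the vehicle chip and 3365, 3510.0 and 3212 on pools 1, 2 and 3. Their median log2 difference was -0.052. In a bulk sample, fewer cells of a type and less RNA per cell cannot be told apart.

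**Figure D3:**
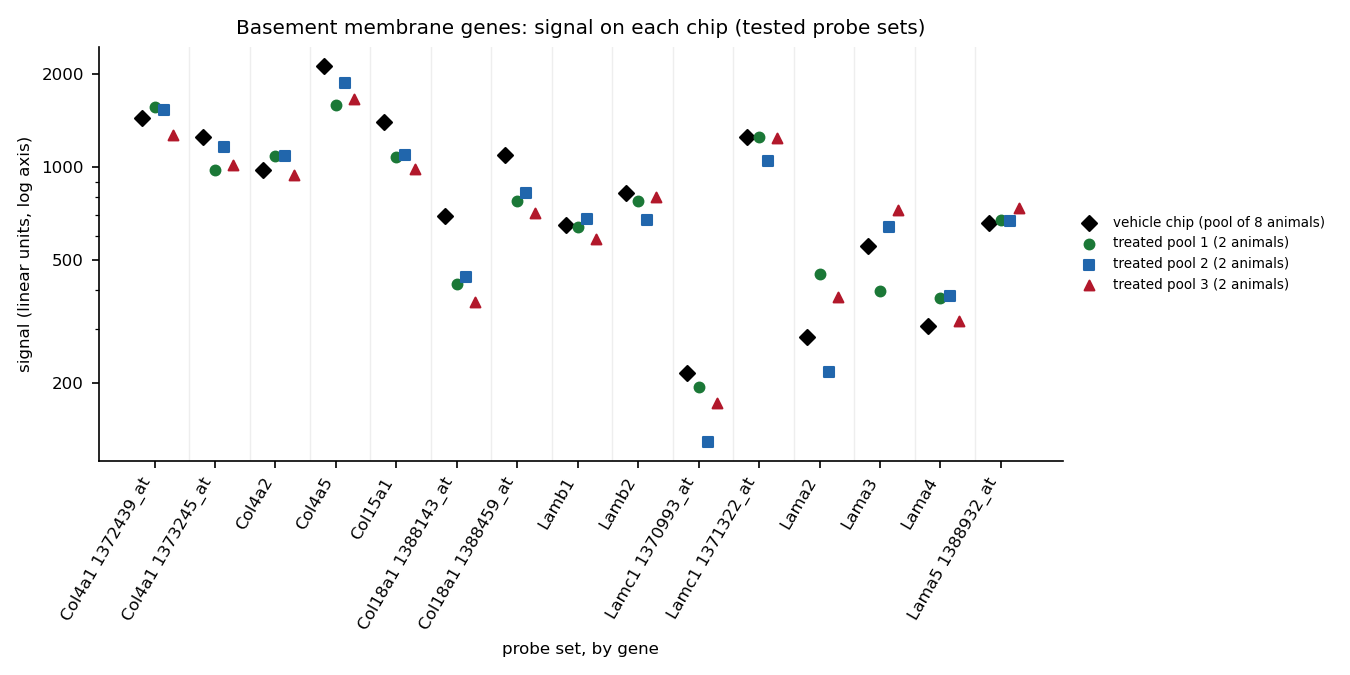
Signal on each of the 4 chips (linear units on a log axis) for the 15 tested basement membrane probe sets; black diamonds are the vehicle chip and coloured symbols the treated pools. The Col18a1 readings at 696 and 1101 and the Col15a1 reading at 1403 stand above all 3 treated pools, while Lama2 and Lama3 have the vehicle chip inside the treated range.

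Fibrillar and interstitial genes lay on both sides of the vehicle chip. Collagen I, the main rope of connective tissue, has chains from Col1a1 and Col1a2. Probe set 1388116_at of Col1a1 had 3074 on the vehicle chip and 2390.0, 2486 and 2328 on treated pools 1, 2 and 3, a narrow treated range that lay below vehicle. Its log2 difference of -0.35 (95% interval from -0.71 to 0.0032) did not pass (limma adjusted p = 0.9998, unadjusted p = 0.052). The other Col1a1 probe set, 1370864_at, had 1221 on the vehicle chip and 868, 1215 and 1007 on treated pools 1, 2 and 3; pool 2 nearly met the vehicle chip and pool 1 lay farthest from it. Col1a2 had 2355 against 2357, 2129 and 2136 by probe set 1370155_at and 1991 against 1869, 1762 and 1720.3 by 1387854_at. The log2 differences were -0.094 and -0.16, so the 4 collagen I readings were all lower in the mean, and 3 of them on every treated chip. Whether Col1a1 differed more than Col1a2 was not tested.

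Col3a1, the chain of the finer collagen III fibrils of mucosa and vessels, had 5393 on the vehicle chip and 5865, 5196 and 5949 on treated pools 1, 2 and 3. The vehicle chip lay inside the treated range, and the log2 difference was 0.069 (95% interval from -0.27 to 0.41). Collagen V, which starts fibrils and sets their width, gave readings that disagreed: Col5a1 had a log2 difference of 0.54 by probe set 1376099_at and -0.011 by 1369955_at. The first had 400.4 on the vehicle chip and 797, 579 and 444 on the treated pools, a wide treated spread with pool 1 highest, and the second 844 and 896, 745 and 879. Col5a2 had 0.19 by 1370895_at, from 1026 against 1044, 1357 and 1139, and -0.099 by 1373463_at, from 1612 against 1460.1, 1445 and 1612. Neither gene can be given a direction from these probe sets.

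The small leucine-rich proteoglycans coat collagen fibrils. Dcn, decorin, had 21566 on the vehicle chip and 23018, 21161 and 20555 on treated pools 1, 2 and 3, a log2 difference of -0.00088 whose 95% limits were -0.32 and 0.32. Bgn, biglycan, had 1044 against 938, 1045 and 909. Lum, lumican, lay on the other side of vehicle from collagen I, with 1093 on the vehicle chip and 1401, 1538 and 1389 on treated pools 1, 2 and 3: every treated pool was above the vehicle chip, and pool 2 was highest. The log2 difference of 0.39 (95% interval from -0.0051 to 0.79) did not pass (limma adjusted p = 0.9998, unadjusted p = 0.053).

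Postn, periostin, a matrix protein that fibroblasts secrete where tissue is remodelled, had 1520.1 on the vehicle chip and 1946, 1804 and 2127 on treated pools 1, 2 and 3. The groups did not overlap, and the log2 difference of 0.36 (95% interval from -0.029 to 0.75) did not pass (limma adjusted p = 0.9998). Tnc, tenascin-C, another glycoprotein of remodelling tissue, had 388 against 449, 667 and 408. It was above vehicle on each treated chip, but pool 2 stood far above the others. Fn1, fibronectin, had 1109 against 1359, 1185 and 1068, and Sparc, a collagen-binding protein, 1717 against 1826, 1577 and 1655 by 1367562_at and 852 against 785, 721 and 744 by 1367563_at. Their log2 differences were 0.11, -0.028 and -0.18, none past the test.

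Elastic fibre genes varied between pools more than from vehicle. Eln, elastin, had 406 against 314, 406 and 485, and Fbn1, the fibrillin scaffold of elastic fibres, had log2 differences of 0.093 and -0.12 by its 2 probe sets. Their signals were 552 against 487, 724 and 581 by 1368829_at and 721 against 658, 562 and 782 by 1387351_at. Lox, lysyl oxidase, which crosslinks collagen and elastin, had 221 against 209.8, 227 and 227, a log2 difference of 0.0034; its other probe set, at 129 against 136, 123 and 148, was too dim to test. Col27a1, a fibrillar chain best known from cartilage, had 189 against 206, 223 and 201, all above vehicle. Col2a1, the chain of cartilage collagen II, had 206 against 198, 154 and 126 on its brighter probe set, all below, and 67.0 against 99.5, 106 and 9.0 on the other, which was too dim to test. The class had 17 genes tested, 7 higher and 10 lower in the mean, with a median of -0.011. Of its 23 probe sets, 6 were above vehicle on all treated chips (26.1%, beside 25.0% of all) and 5 below (21.7%, beside 24.0%), which is near the background. Of 12 fibroblast markers 9 were on the chip, and the 6 tested had a summed signal of 5588 on the vehicle chip and 4759, 5571 and 6766 on pools 1, 2 and 3. Twist1, Twist2 and Fap were too dim to test. Smooth muscle markers, all 13 of them tested, had 89027 on the vehicle chip and 104439, 87987 and 82272 on pools 1, 2 and 3. By these sums pool 1 was highest for muscle and lowest for fibroblast markers. The single fibroblast markers did not share that order. Vim, Pdgfra and Thy1 were lowest on pool 1, whereas S100a4 and Tcf21 were highest there and Pdgfrb was lowest on pool 3. The part of muscle or fibroblasts in the values above was not tested.

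**Figure D4:**
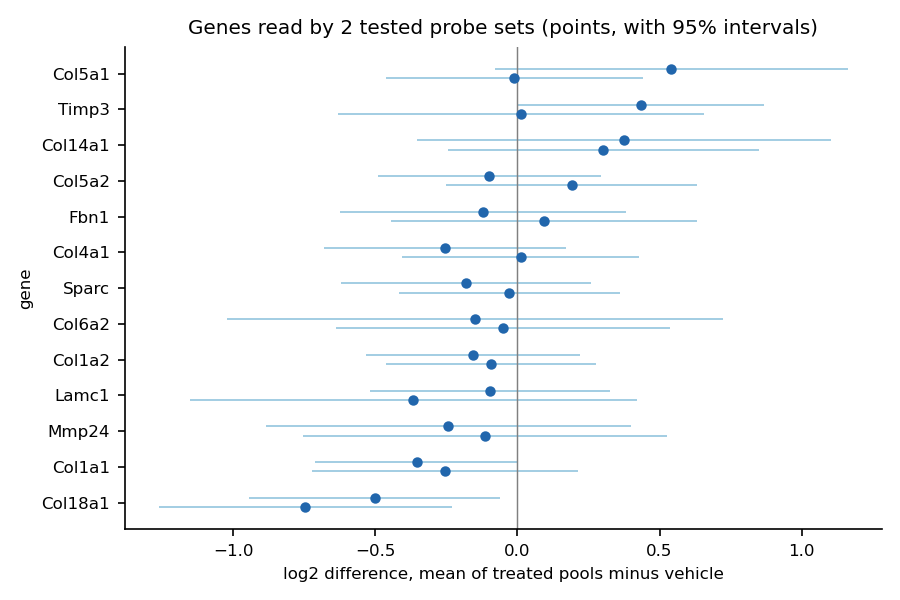
Log2 difference with its 95% interval (limma) for the 13 member genes read by 2 tested probe sets, 1 point per probe set. The 2 readings have the same sign for 9 genes and opposite signs for 4, Col4a1, Col5a1, Col5a2 and Fbn1; both Col18a1 intervals lie below 0.

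The other collagens form beaded filaments, hexagonal networks or links on fibril surfaces. Collagen VI, the beaded filament around cells, has chains from Col6a1, Col6a2 and Col6a3. Col6a1 had 1903 on the vehicle chip and 1878, 1845 and 2477 on treated pools 1, 2 and 3, with pool 3 well above the other chips. Col6a2 had 1146 against 925, 919.5 and 1585 by probe set 1371369_at and showed the same high pool 3, whereas 1376162_at had 165 against 114, 199.9 and 138. Col6a3 had 1472 against 1187, 1639.7 and 1632, with pool 1 low. The log2 differences were 0.10, -0.052, -0.15 and -0.0013, all smaller than the range between treated pools.

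Col12a1 and Col14a1, fibril-associated chains of dense connective tissue, were above vehicle on every treated chip. Col12a1 had 244 on the vehicle chip and 259.9, 363 and 359 on treated pools 1, 2 and 3 by probe set 1370927_at, with pool 1 close to the vehicle chip; its other probe set had no signal above 58.2. Col14a1 had 391 against 569.9, 409 and 489 by 1376105_at and 153 against 226, 182 and 204 by 1376170_at, in the same order of pools. The log2 differences were 0.39, 0.30 and 0.38 with unadjusted limma p of 0.21, 0.26 and 0.29, so none passed. Col8a1 and Col8a2, network chains of vessel walls, had 144 against 178 ± 29.9 (SD, n = 3) and 318 against 350.0 ± 43.5 (SD, n = 3). The vehicle signal of Col8a1 lay just under the filter level of 144.7, as for no other tested member, so its treated signals brought it into the test. Col26a1 had 241 against 245, 147 and 197, with pool 1 at the vehicle level and pool 2 far below. The class had 8 genes tested, 5 higher and 3 lower, with a median of 0.12. Of its 10 probe sets, 4 were above vehicle on all treated chips (beside 25.0% of all) and 0 below (beside 24.0%).

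Of the proteases, 5 of 14 metalloproteinase genes were bright enough to test, and all of the 3 TIMP genes. Mmp14, a membrane-bound metalloproteinase, activates Mmp2, a gelatinase, with Timp2 as the bridge between them. Mmp14 had 1063 on the vehicle chip and 1525, 913 and 1509 on treated pools 1, 2 and 3. Mmp2 had 591 on the vehicle chip and 719.9, 607 and 743 on treated pools 1, 2 and 3 by probe set 1370301_at. Timp2 had 1785 on the vehicle chip and 2097, 1773 and 1892 on treated pools 1, 2 and 3 by 1386940_at. In all 3, pool 2 was the lowest treated chip and lay near or under vehicle, while pools 1 and 3 were above it. The log2 differences were 0.27, 0.21 and 0.10, with 95% intervals that included 0. The second probe sets were dim, at 173 against 122, 195 and 88.2 for Mmp2 and 138 against 93.7, 130.0 and 101 for Timp2. Neither was tested, and both had pool 2 as the highest treated chip.

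Timp3, the inhibitor that stays bound to matrix, had 934 on the vehicle chip and 1143, 1237 and 1440.0 on treated pools 1, 2 and 3 by probe set 1389836_a_at. All treated chips were above vehicle, with a log2 difference of 0.43 and a 95% interval from 0.0027 to 0.87. It did not pass over all probe sets (limma adjusted p = 0.9998, unadjusted p = 0.049). A second tested Timp3 probe set, 1375138_at, had 561 against 603, 397 and 757, on both sides of vehicle, with a log2 difference of 0.013. The other 2 Timp3 probe sets were dim, at 23.0 against 83.7, 31.5 and 75.4 and 91.9 against 104, 67.4 and 17.2. Both tested Timp3 readings were higher in the mean, that of 1375138_at by only 0.013, and only 1389836_a_at was above vehicle on every treated chip. Timp1, the inducible inhibitor, had 985 against 863, 1153 and 1090.2, a log2 difference of 0.060 (95% interval from -0.40 to 0.52).

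Mmp17, Mmp23 and Mmp24, membrane-anchored or transmembrane members of the family, were dim, with no signal above 419. Mmp17 had 294 against 262, 266 and 205, all below vehicle, and Mmp23 174 against 124, 162 and 174. Mmp24 had 391 against 330.0, 254 and 419 by 1389833_at and 262 against 227, 239 and 259 by 1372422_at. Their log2 differences ran from -0.26 for Mmp17 to -0.11 for 1372422_at, none past the test. The class had 8 genes tested, 5 higher and 3 lower, with a median of 0.081; of its 10 probe sets 2 lay above vehicle on all treated chips, of Mmp2 and Timp3 (beside 25.0% of all), and 2 below, of Mmp17 and Mmp24 (beside 24.0%), which is near the background.

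The secreted collagenases, stromelysins and gelatinase B were dim on every chip. Mmp8 and Mmp13, which cut fibrillar collagen, had 64.4 against 89.7, 60.5 and 71.4 and 83.7 against 34.8, 35.5 and 18.6. Mmp3 and Mmp10, the stromelysins, had 22.6 against 76.4, 32.7 and 29.0 and 37.8 against 147, 64.6 and 74.1, both highest on pool 1. Mmp9, gelatinase B of leukocytes, had 37.2 against 43.8, 16.2 and 46.8 by 1369166_at and 14.5 against 62.4, 4.9 and 7.7 by 1398275_at. At such signals the order of chips is not a measured difference, and none of these were tested.

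Mmp7, an epithelial matrilysin, had 7.6 against 5.9, 7.6 and 14.3, and Mmp12, the macrophage elastase, 90.6 against 158, 79.9 and 28.4. Mmp11 and Mmp16 had 134 against 93.4, 72.3 and 56.4 and 67.8 against 110.0, 63.6 and 89.9. None of these reached the filter level in the mean of the 4 chips, although Mmp12 on pool 1 lay above it. Among leukocyte markers, Ptprc, Cd68, Cd14, Itgam and Aif1 were too dim to test, and the 7 tested of 13 (C1qb only through the treated chips) had a summed signal of 5535 on the vehicle chip and 5981, 5502 and 7184 on pools 1, 2 and 3.

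**Figure D5:**
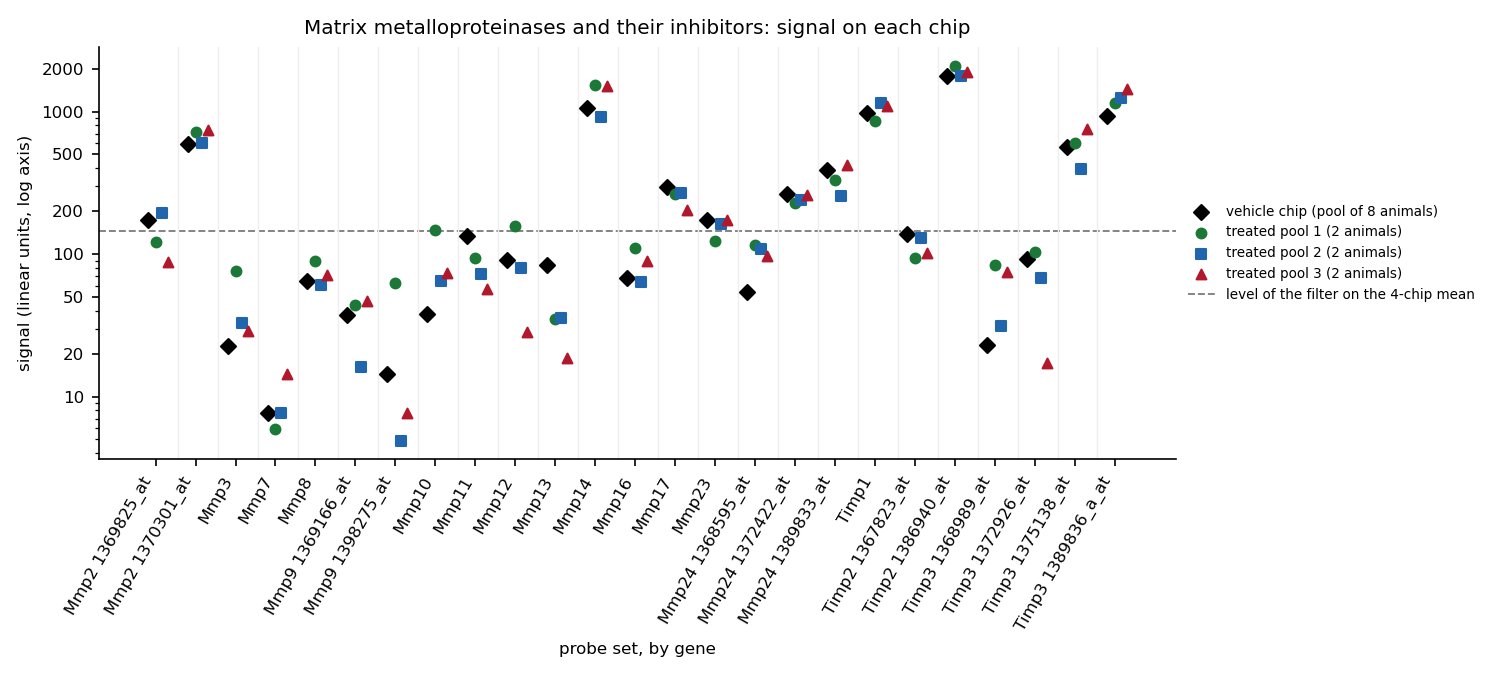
Signal on each chip (linear units on a log axis) for all 25 metalloproteinase and TIMP probe sets; the dashed line is the level of 144.7 that the mean of 4 chips had to reach for a probe set to be tested. Only Mmp2, Mmp14, Mmp17, Mmp23, Mmp24 and the TIMPs have a probe set whose mean reached it, and pool 2 is the lowest treated chip for Mmp14, Mmp2 1370301_at and Timp2 1386940_at.

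In all, 30 member probe sets and 19 genes lay under the filter, with single signals from 0.4 to 195.2 and a median of 56.2. Beside the metalloproteinases these were the cartilage chains Col9a1, Col9a2, Col10a1, Col11a1 and Col11a2, and Col4a4, Col5a3, Col7a1, Col19a1 and Lama1. Without the filter, 4 of the 88 member probe sets were at least 1.5-fold from vehicle on every treated chip: Col18a1 1388143_at and Mmp13 below it, and Mmp24 1368595_at and Col11a1 1384211_at above it. The vehicle signals of the last 3 were 83.7, 54.0 and 0.4, so only Col18a1 was measured at a level that passed. The same distance was reached without the filter by 3.41% of all 15866 probe sets above and 2.28% below.

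Genes that fold, process and crosslink collagen showed no call in 15 tested of 27 listed, beside 0.105% called of all 9520 probe sets tested. Of the 15 genes, 6 were higher and 9 lower, with a median log2 difference of -0.10. That median was -0.16 without treated pool 1 and 0.036 without treated pool 3. Plod3, a lysyl hydroxylase that also adds sugars to collagen, had 709 against 486, 479.5 and 489.7 on pools 1, 2 and 3. The treated chips were almost equal and below vehicle, with a log2 difference of -0.53 and an unadjusted limma p of 0.032. P4ha1, a prolyl hydroxylase subunit that the stable helix needs, had 479 against 283, 399.8 and 362, all below. Fkbp10, a collagen chaperone, had 109.7 against 286, 165 and 159, all above. Its vehicle signal lay under the filter level of 144.7, so only its treated signals brought it into the test and among the 6 higher genes. Serpinh1, the collagen-specific chaperone, had a log2 difference of -0.10.

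Other matrix glycoproteins and proteoglycans gave 14 genes higher and 6 lower of 20 tested (30 listed). Of the 20, 0 were called (beside 0.105% of all probe sets tested), and the median was 0.052. Of all 7150 genes, 3560 were higher and 3590 lower. The medians of this list on pools 1, 2 and 3 were 0.20, -0.0049 and 0.041. Mfap5, a microfibril protein, had 372 against 607, 463 and 528, all above vehicle. Mgp, a matrix protein that restrains calcification, had 4415 against 3080.0, 2865 and 4591, with pool 3 at the vehicle level, and Matn2, a filament-linking protein, had 170.3 against 197, 229.8 and 406. In the list of other matrix proteolysis 5 were higher and 9 lower of 14 tested (27 listed). Of the 14, 0 were called (beside 0.105% of all probe sets tested), and the median was -0.022. Ctss, a cathepsin of antigen-presenting cells, had 534 against 272, 260.1 and 538, so pools 1 and 2 were low and pool 3 was near vehicle. Serpine2, a protease inhibitor, had 517 against 632, 545 and 814, and Ctsd, a lysosomal protease, had 3023 against 2868, 2679 and 2646.

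Matrix receptors had 12 genes higher and 4 lower of 16 tested (24 listed), with a median of 0.12. Of the 16, 0 were called (beside 0.105% of all probe sets tested). Of all 7150 genes, 3560 were higher and 3590 lower. The receptor medians on pools 1, 2 and 3 were 0.19, -0.031 and 0.19. Itga6, the integrin chain that binds laminin at the base of epithelia, had 329 against 174, 245 and 169, all below vehicle, with a log2 difference of -0.72 and an unadjusted limma p of 0.049. Its partner Itgb4 had 1209 against 1460.1, 1287 and 1552 and Itga3, another laminin-binding chain, 738 against 863, 1001 and 849.9, all above vehicle. Sdc1, an epithelial syndecan, had 987 against 1248, 1032 and 1276. Within TGF-beta signalling, the main inducer of matrix genes, 8 were higher and 8 lower of 16 tested (22 listed). Of these 16, 0 were called (beside 0.105% of all probe sets tested), and the median was 0.052. That median was 0.18 without the filter or with it at the 20th percentile and 0.17 with averaged probe sets. Tgfb3, a ligand, had 398 against 263, 306 and 316, all below; Tgfbi, a matrix protein that the pathway induces, had 2196 against 3040.0, 2913 and 2338, all above. Id1, a regulator that also answers BMP signals, had 3148 against 3883, 3949.9 and 4846 with an unadjusted limma p of 0.034, and Ccn2, a fibrogenic target, had a log2 difference of -0.25.

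Markers of squamous forestomach epithelium were listed with earlier results of these data known, so their difference between the groups is only described here. The 11 tested had a summed signal of 1892 on the vehicle chip and 9586, 7064 and 6164 on pools 1, 2 and 3, with median log2 differences of 2.16, 1.71 and 1.49. Lgals7, Sprr3, Krt5, Krt15 and Krt14 had vehicle signals under the filter level and passed it only through the treated chips. The other 6, split off after their values were seen, had a summed signal of 1409 on the vehicle chip and 7521, 5646 and 4606 on the treated pools. All member classes had medians between -0.015 and 0.12, and on pools 1, 2 and 3 the medians of all 45 members were 0.019, -0.0094 and 0.058. The part of squamous tissue in these medians or in the value of any single member was not tested.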

How the data were processed

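The values are signal intensities on a linear scale, as deposited, 1 for each probe set on each chip; how the authors computed and scaled them is not given in the sources used here. The trimmed mean (2% at each end) was 496.8 to 497.2 on all chips, as scaling to a common target would give, so that differences are relative to each chip's total. Per the labels' protocols, column-purified total RNA gave the biotin-marked cRNA; each treated chip holds other animals.

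Signals were used as log2(signal + 16), so folds understate changes of dim genes. Probe sets whose mean on that scale lay under the 40th percentile (a signal of 144.7) were left out, which left 9520. These went into a single linear model per probe set (limma 3.58.1, R 4.3.3; lmFit, then eBayes with trend; 2 residual and 11.5 prior degrees of freedom). P-values are two-sided and adjusted by Benjamini-Hochberg over all of them, and 0.05 was the threshold. The code was tested on simulated data. The number of chips limits the precision. Of 15866 probe sets, 12783 named 1 gene, 312 several and 2771 none here. Gene medians use the probe set with the highest mean. Members and lists were chosen with earlier results of these data known. Every member may be named; signals on each chip are given for the smallest p and highest means of a class, fixed core genes, tested metalloproteinases and genes with several probe sets, and for the 3 smallest p of each pathway list; a few other pathway genes were named after their values were seen. Alternatives changed the pseudocount, filter, scaling, moderation, probe set rule and treated pools.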

Additional observations from a re-analysis of the deposited data

How the results depend on the processing

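No member probe set and no gene of the pathway lists was called under any of the 12 alternatives tried for the calls, and the lowest limma adjusted p of a member was 0.23. Over 683 refits of the 58 tested member probe sets, the sign changed in 23, for 15 probe sets whose differences were all at most 0.15 in size. The count over all features was 10; it was 0 without the filter, 5 with the filter at the 20th percentile, 5 with quantile normalization, 5 with 75th percentile centring, 1 without a trend, and 31 to 55 when a treated pool was left out. Unadjusted p under 0.05 held for 776 probe sets without the filter and for 435 to 664 without a pool; among members these counts were 8 without the filter and 2 to 6 without a pool. Without the filter 23 of 88 members were above vehicle on all treated chips (26.1%, beside 24.4% of all probe sets), and 4 were past 1.5-fold, against 2 with the filter at the 20th percentile. The member median was 0.044 without the filter and 0.043 with averaged probe sets. The basement membrane median was -0.081 with averaged probe sets and -0.055 to -0.033 without a pool. For TGF-beta signalling the median was 0.18 without the filter, 0.18 with the filter at the 20th percentile and 0.17 with averaged probe sets, and that of collagen folding ran from -0.16 without pool 1 to 0.036 without pool 3. The causes of these changes were not tested. By construction, leaving out a pool takes the spread from fewer chips, and the looser filters test more probe sets. No paired analysis was possible because the vehicle group is 1 chip, so the groups share fewer than 2 replicate numbers. The filter level of about 145 is a percentile and not a measured background, and without detection calls no transcript was called absent.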
